A study of Rattus norvegicus with 4 samples.

Results

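The miR-15/16 family, with miR-195 and miR-497, is a group of microRNAs (miRNAs, short RNAs that lower the output of matching messenger RNAs) that share the same seed, the stretch of bases 2 to 8 that pairs with target transcripts. Its 5 members here are the rat miRNAs rno-mir-15a, rno-mir-15b, rno-mir-16, rno-mir-195 and rno-mir-497, taken by the name of the precursor hairpin to which each read sequence was aligned. They were 5 of 262 named miRNA genes with a count. The tag files hold 39 entries for them, where a tag is a distinct read sequence with its count. All 39 aligned to a single hairpin, so no read of the family was divided with another miRNA.

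The samples were exosomes (vesicles shed by cells) from Sprague-Dawley rats. Exo-AT vesicles came from minced adipose tissue of animals aged 4 weeks, stirred for 3 days in a spinner flask. Exo-ADSCs vesicles came from adipose stem cells at passage 3, kept for 3 days without serum. No genotype or drug differed between the groups, which differ in source and in culture. Each group has 2 libraries of small RNA. Counts per tag were used for Exo-AT replicates 1 and 2 and Exo-ADSCs replicate 2, so Exo-ADSCs values have no SD. Exo-ADSCs replicate 1 enters through a single value of the authors' deposited table. The labels do not say whether replicates came from separate animals or cultures, and both Exo-AT tag files carry the same sample name inside. The p-values therefore measure the spread between the 2 Exo-AT libraries only, which may be technical, and Exo-ADSCs is assumed to vary alike.

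Family members are known to restrain cell division and survival by targeting transcripts of cyclins, cyclin-dependent kinases and BCL2. miR-15a and miR-15b are each encoded beside a copy of miR-16 in mammals, and miR-497 and miR-195 are encoded beside each other. miR-16 is also among the most abundant miRNAs of red blood cells and plasma. In mice, miR-195 is known for its part in the withdrawal of heart muscle cells from the cell cycle, and miR-195 and miR-497 for a part in the quiescence of muscle stem cells.

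The mature sequences are shown because the shared seed, in capitals, defines the family, and because the bases after it tell the members apart in the reads. They are from RefSeq (GRCr8 build), which matched 4 of the 5 members, and are written 5′ to 3′. miR-15a is given by its leading tag in the deposited files, and miR-322-5p is added as the other rat miRNA in the RefSeq table with this seed.
rno-miR-16-5p: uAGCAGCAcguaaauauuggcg
rno-miR-195-5p: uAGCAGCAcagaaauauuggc
rno-miR-15a-5p, leading tag: tAGCAGCAcataatggtttgt
rno-miR-15b-5p: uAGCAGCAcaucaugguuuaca
rno-miR-497-5p: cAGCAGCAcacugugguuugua
rno-miR-322-5p: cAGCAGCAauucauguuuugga

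Counted base by base from the 5′ end, miR-16-5p and miR-195-5p were identical at 19 of 21 positions, and the miR-15a leading tag and miR-15b-5p at 18 of 21. miR-16-5p and miR-497-5p were the least alike, with 11 of 22. miR-15b-5p lies on chromosome 2 (chr2:155555197-155555218, plus strand), 146 bases upstream of miR-16-5p (chr2:155555343-155555364, plus strand). miR-497-5p lies on chromosome 10 (chr10:55450172-55450193, plus strand), 337 bases upstream of miR-195-5p (chr10:55450509-55450529, plus strand). The files use 1 hairpin for miR-16, and its sequence matches the RefSeq hairpin on chromosome 2. A read of mature miR-16-5p cannot be assigned to a locus where copies yield the same sequence.

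Named miRNAs held 9134 and 136024 counts in Exo-AT replicates 1 and 2, against 97204 for Exo-ADSCs replicate 2. Where a miRNA has 0 counts, up to 3 may have been missed, equal to 237, 20.3 and 46.5 CPM (counts scaled to a common library total) in these libraries after TMM scaling, edgeR's correction for differences in composition. Hairpins predicted by the authors took 39.9%, 24.9% and 86.4% of all assigned counts, in the same order. No tag has fewer than 2 reads, so rare forms are missing from shallow libraries. Reads carry no molecular identifiers, and intervals and floors cover counting error only.

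As a whole, the family was a larger part of the miRNA content in Exo-AT than in Exo-ADSCs. It held 65 counts in Exo-AT replicate 1, which is 0.712% of named miRNA counts (Wilson 95% interval 0.559 to 0.906). In Exo-AT replicate 2 it held 1032 counts, or 0.759% (0.714 to 0.806). In Exo-ADSCs replicate 2 it held 55 counts, or 0.0566% (0.0435 to 0.0736). The Exo-AT intervals overlapped each other and lay above that of Exo-ADSCs, and the shares were 12.6 and 13.4 times that of Exo-ADSCs replicate 2. With tags of 20 to 25 nt only, the shares were 0.854%, 0.873% and 0.127% of the named counts that remained.

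All 5 members had counts in Exo-AT replicate 2, whereas only miR-16, miR-15a and miR-497 had any in Exo-AT replicate 1 and in Exo-ADSCs replicate 2. Of the 10 possible arms (5p and 3p of each hairpin), 6 had a count in at least 1 library and 3 passed edgeR's filter on low counts. These were miR-16-5p, miR-15a-5p and miR-497-5p, and all 3 were called higher in Exo-AT (adjusted p under 0.05 by the quasi-likelihood test of edgeR, Benjamini-Hochberg adjusted). Among all 183 miRNAs tested, 35 were called higher (19.1%) and 36 lower (19.7%). The filter keeps a form with enough counts in any single library. miR-15a-5p and miR-497-5p, with 7 and 6 counts in Exo-ADSCs replicate 2, missed its minimum of 10 there and passed through Exo-AT alone. The count of 3 of 3 is thus partly set by the filter. Without the filter, 3 of 6 family forms were called higher, beside 29 of 348 miRNAs. The 3 forms also had both Exo-AT libraries above Exo-ADSCs replicate 2, as did 72 of the 183 (39.3%).

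**Figure D1:**
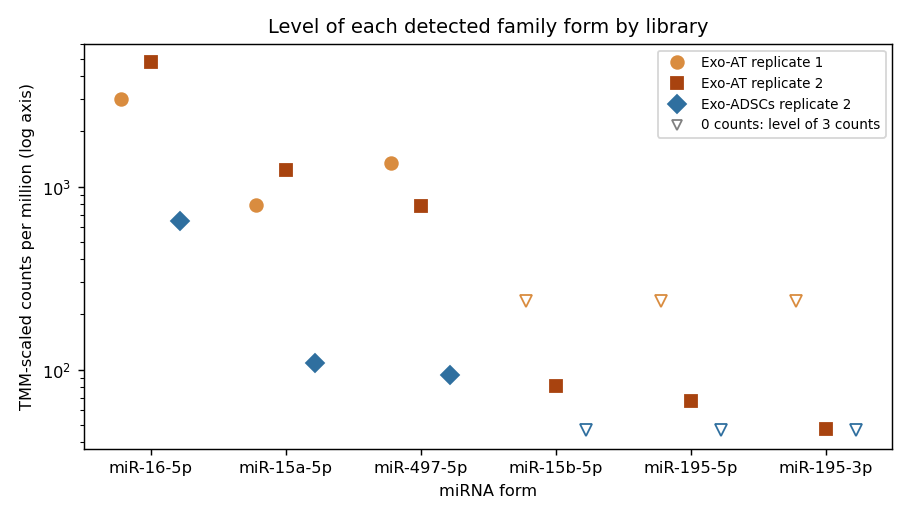
Level of each detected family form (TMM-scaled CPM, log axis) in the 3 libraries with tag counts. Filled symbols are single libraries, and open triangles mark libraries with 0 counts, drawn at the level that 3 counts would give. miR-16-5p, miR-15a-5p and miR-497-5p lie higher in both Exo-AT libraries than in Exo-ADSCs replicate 2, and miR-15b-5p and both arms of miR-195 have counts in Exo-AT replicate 2 alone.

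miR-16-5p, the leading member in all 3 libraries, had 38 and 705 counts in Exo-AT replicates 1 and 2, against 42 for Exo-ADSCs replicate 2. In TMM-scaled CPM these are 2998, 4772 and 651. Both Exo-AT libraries were above the Exo-ADSCs library. The Exo-AT mean was 3885 ± 1255 CPM (SD, n = 2), against 651 CPM in the Exo-ADSCs library, and the log2 fold change was 2.60 (SE 0.47, adjusted p = 7.25e-07 by edgeR). By count it was the 24th and 18th most abundant miRNA of the Exo-AT libraries and the 66th of Exo-ADSCs replicate 2.

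miR-15a-5p, which is best known as a repressor of BCL2 in human lymphocytes, had 10 and 183 counts in Exo-AT replicates 1 and 2, against 7 in Exo-ADSCs replicate 2. The levels were 789 and 1239 CPM for Exo-AT and 109 CPM for Exo-ADSCs. The groups did not overlap. The log2 fold change was 3.26 (SE 0.88, adjusted p = 0.00126 by edgeR). DESeq2 gave miR-15a-5p 2.96 with an adjusted p of 0.0589, which is not a call.

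miR-497-5p had 17 and 115 counts in Exo-AT replicates 1 and 2, against 6 in Exo-ADSCs replicate 2. The levels were 1341 and 778 CPM for Exo-AT and 93.0 CPM for Exo-ADSCs. Both Exo-AT libraries were again higher, but in contrast to miR-16-5p and miR-15a-5p, replicate 1 had the higher level of the pair. The log2 fold change was 3.42 (SE 0.95, adjusted p = 0.00162 by edgeR). The standard errors of the 3 forms overlapped, and the differences between their fold changes were not tested. The fits for miR-15a-5p and miR-497-5p rest on 7 and 6 counts in a single Exo-ADSCs library.

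**Figure D2:**
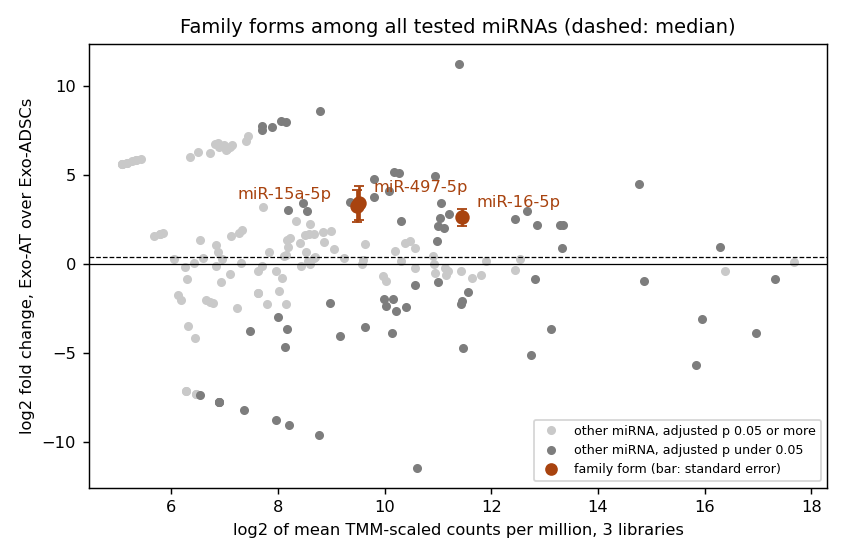
Log2 fold change of Exo-AT over Exo-ADSCs against the log2 mean level for all 183 tested miRNAs. Each dot is 1 miRNA, dark grey where the adjusted p is under 0.05, and the family forms carry standard error bars. miR-16-5p (2.60), miR-15a-5p (3.26) and miR-497-5p (3.42) lie above the dashed median of all tested miRNAs (0.38), among other miRNAs with equal and larger changes.

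The size of the difference depended on the scaling, which shifts all miRNAs by about the same amount. Over the 183 miRNAs the median log2 fold change stood at 0.38 under TMM, 0.08 under DESeq2 size factors, 1.21 with totals of named counts and 3.55 with totals of all assigned counts, the last an alternative chosen after seeing the data. Relative to these medians, miR-16-5p stood at 2.23, 2.23, 2.23 and 2.24, a likeness that follows from such a shift and says nothing of stability. miR-15a-5p stood at 2.88, 2.88, 2.87 and 2.87, and miR-497-5p at 3.04, 3.09, 3.08 and 3.01. Where the tags counted were changed, the distance moved, to 1.30 for miR-16-5p, 2.03 for miR-15a-5p and 2.20 for miR-497-5p with tags of 20 to 25 nt only. All 3 forms were called higher by edgeR under each of these 4 scalings. Of all 183 miRNAs, 19.1% were called higher with TMM, 12.6% with DESeq2 size factors, 25.1% with totals of named counts and 59.6% with totals of all assigned counts. Among the 35 miRNAs called higher with TMM, miR-497-5p ranked 17th by log2 fold change, miR-15a-5p 19th and miR-16-5p 24th.

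**Figure D3:**
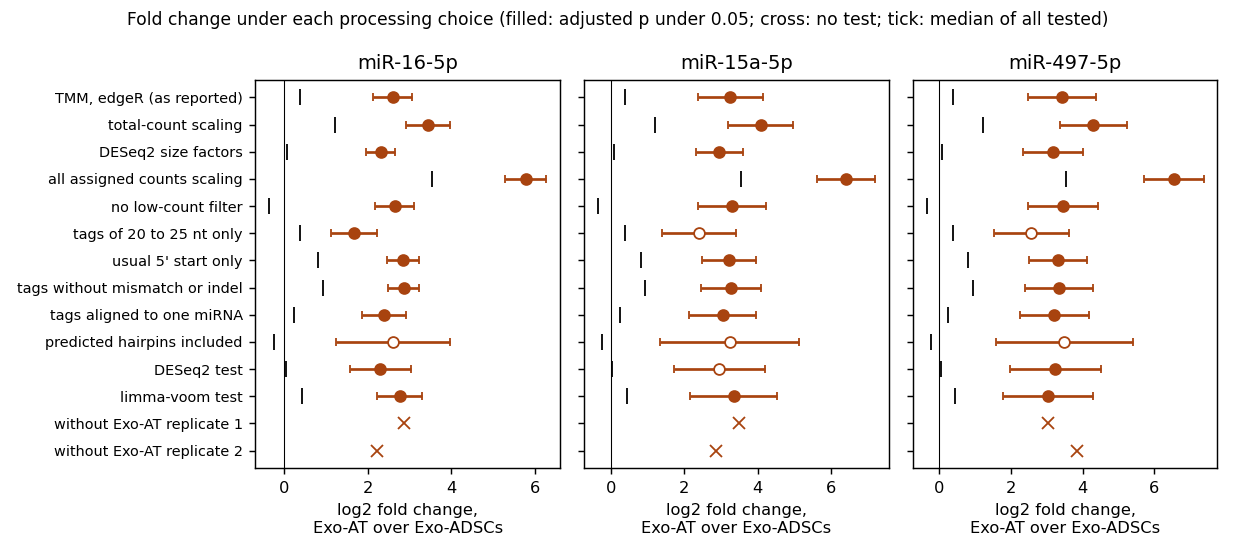
Log2 fold change of Exo-AT over Exo-ADSCs for the 3 tested family forms under each processing choice, with standard errors where a test was run. Filled circles have an adjusted p under 0.05, open circles do not, crosses have no test, and black ticks give the median of all features tested under that choice. All values are above 0. miR-16-5p is lowest with tags of 20 to 25 nt only (1.68), where miR-15a-5p and miR-497-5p are not called.

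miR-15b-5p had 12 counts in Exo-AT replicate 2 (81.2 CPM) and 0 in Exo-AT replicate 1 and in Exo-ADSCs replicate 2. At the rate of Exo-AT replicate 2, Exo-AT replicate 1 would have given 1.03 counts and Exo-ADSCs replicate 2 would have given 5.24. The absence from Exo-AT replicate 1 is therefore within what its depth allows. With Exo-ADSCs set at 3 counts and the Exo-AT libraries pooled, the level of miR-15b-5p in Exo-AT was 1.61 times that of Exo-ADSCs. This figure rests on counts from a single library and leaves out their counting error, so it is no lower bound. miR-15b-5p was not tested, as it did not pass the filter. Without a filter on low counts its adjusted p was 0.339 by edgeR.

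miR-195 was the only member with reads from both arms. The 5p arm had 10 counts (67.7 CPM) and the 3p arm 7 counts (47.4 CPM), both in Exo-AT replicate 2, and neither had a count in the other 2 libraries. Pooled in the same way, the Exo-AT level was 1.34 times that of Exo-ADSCs for miR-195-5p and 0.938 times for miR-195-3p. These figures too leave out the counting error of the Exo-AT counts. Without a filter on low counts, the adjusted p was 0.353 for miR-195-5p and 0.384 for miR-195-3p by edgeR. Of miR-195 reads 58.8% were from the 5p arm (Wilson 95% interval 36 to 78.4), whereas all reads of the other 4 members were from the 5p arm.

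Mature forms named for neighbouring genes had unequal counts in Exo-AT replicate 2. In Exo-AT replicate 2, miR-497-5p had 115 counts and its neighbour miR-195-5p had 10, a ratio of 11.5 (exact counting interval 6.03 to 24.6). In the same library miR-16-5p had 705 counts and its chromosome 2 neighbour miR-15b-5p had 12, a ratio of 58.8 (33.4 to 114). Reads of miR-16-5p cannot be assigned to a locus and may pool several copies. In no library does its ratio to miR-15b-5p therefore compare the chromosome 2 genes alone. miR-15a-5p exceeded its near relative miR-15b-5p by 15.3 times (8.52 to 30.1). In Exo-AT replicate 1 and Exo-ADSCs replicate 2, where miR-15b and miR-195 had 0 counts, the exact intervals put miR-16-5p at 9.81 and 10.9 times miR-15b-5p or more, and miR-497-5p at 4.13 and 1.18 times miR-195-5p or more. The ratio of miR-16-5p to miR-15a-5p was 3.80 (1.86 to 8.55) and 3.85 (3.27 to 4.56) in Exo-AT and 6 (2.67 to 15.8) in Exo-ADSCs, and the intervals overlapped.

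Within the family, miR-16 held 58.5%, 68.3% and 76.4% of counts in Exo-AT replicate 1, Exo-AT replicate 2 and Exo-ADSCs replicate 2. The share of miR-15a was 15.4%, 17.7% and 12.7%, with overlapping intervals. miR-497 held 26.2% in Exo-AT replicate 1 (Wilson 95% interval 17 to 38), against 11.1% (9.37 to 13.2) in Exo-AT replicate 2 and 10.9% (5.10 to 21.8) in Exo-ADSCs replicate 2. The libraries of Exo-AT thus differed from each other in the share of miR-497 beyond counting error. The order of levels was miR-16-5p, miR-497-5p, miR-15a-5p in Exo-AT replicate 1 and miR-16-5p, miR-15a-5p, miR-497-5p in the other 2 libraries. miR-15a-5p and miR-497-5p had overlapping intervals in Exo-AT replicate 1 and in Exo-ADSCs replicate 2.

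**Figure D4:**
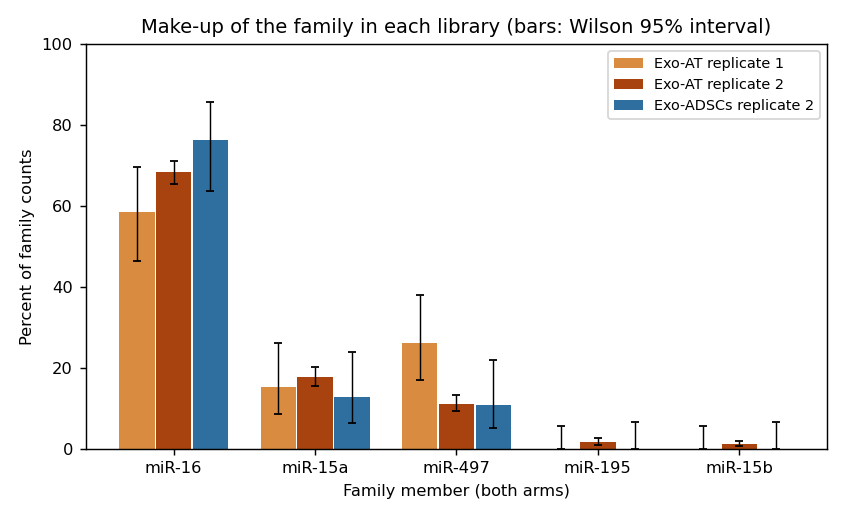
Percent of family counts held by each member (both arms) in Exo-AT replicate 1, Exo-AT replicate 2 and Exo-ADSCs replicate 2, with Wilson 95% intervals for counting error. miR-16 is the largest part in every library (58.5%, 68.3% and 76.4%), and miR-497 is larger in Exo-AT replicate 1 (26.2%) than in the others (11.1% and 10.9%).

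The tags of miR-16-5p are shown because they carry the length and end differences between the libraries. The bases that form the seed of the full-length tag are in capitals in all of them, wherever the tag starts, the letters are as deposited (T for U), and the tags stand in the order full length, without the last base, shortened at the 3′ end, started 1 base late and extended at the 5′ end.
full length: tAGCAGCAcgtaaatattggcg
last base missing: tAGCAGCAcgtaaatattggc
shortened: tAGCAGCAcgtaaatat
late start: AGCAGCAcgtaaatattggcg
extended: acgtAGCAGCAcgtaaatattggcg

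The full-length tag equals the RefSeq mature sequence. It held 36 of 38 counts of miR-16-5p in Exo-AT replicate 1 (94.7%, Wilson 95% interval 82.7 to 98.5), 555 of 705 in Exo-AT replicate 2 (78.7%, 75.6 to 81.6) and 34 of 42 in Exo-ADSCs replicate 2 (81.0%, 66.7 to 90). The 17 nt tag had 2 and 23 counts in Exo-AT replicates 1 and 2 and was not listed in Exo-ADSCs. The tag without the last base had 45 counts and the late start had 16, both in Exo-AT replicate 2 alone. A late start moves the seed by 1 base, and it made up 2.27% of miR-16-5p there.

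All of the other 8 counts in Exo-ADSCs replicate 2 (19.0% of miR-16-5p) came from the extended tag, which carries the bases ACG before the usual start, an insertion in the alignment. The same ACG extension was found on 12 named miRNA forms of Exo-ADSCs replicate 2, among them miR-122-5p (20 of 22 counts) and miR-93-5p (10 of 29), named after their values were seen, and on none in either Exo-AT library. Over the other named miRNAs of Exo-ADSCs replicate 2 it made up 0.0710% of counts. With tags of the usual 5′ start only, miR-16-5p stood at 2.85 on the log2 scale and was called.

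miR-15a-5p differed in length between the groups. All 10 counts in Exo-AT replicate 1 and 177 of 183 in Exo-AT replicate 2 were 21 nt long, whereas all 7 counts in Exo-ADSCs replicate 2 were 20 nt, from the tag tAGCAGCAcataatggtttg, which lacks the last base of the leading tag. The 20 nt tag had 6 counts in Exo-AT replicate 2 (3.28%, Wilson 95% interval 1.51 to 6.97), against 100% in Exo-ADSCs (64.6 to 100). This difference rests on 1 tag with 7 reads.

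miR-497-5p was mostly 1 base shorter than its RefSeq sequence. The tag without the last base, cAGCAGCAcactgtggtttgt, had 15 of 17 counts in Exo-AT replicate 1, 65 of 115 in Exo-AT replicate 2 and 6 of 6 in Exo-ADSCs replicate 2. The full RefSeq form had 8 counts, all in Exo-AT replicate 2. miR-15b-5p was read in its RefSeq form in 12 of 12 counts. miR-195-5p had 1 more base at its 3′ end in 10 of 10, as the tag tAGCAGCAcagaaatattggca.

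Reads with a substitution were counted in Exo-AT replicate 2, the deepest library for the family. They made up 8.51% of miR-16-5p counts (Wilson 95% interval 6.67 to 10.8), 14.8% of miR-497-5p (9.44 to 22.4) and 1.64% of miR-15a-5p (0.559 to 4.71). Over all other named miRNAs of that library, 23% of counts carried a mismatch or indel. Positions are counted from 1 at the tag's 5′ end, with the hairpin's base first. In miR-497-5p, 15 of the 17 such counts had a changed first base at the usual start, as C1A, C1T or C1G. In miR-16-5p the leading changes were T1C (14 counts), G22A (13 counts) and C9T (10 counts). Changes inside the seed at the usual start were rare, with 5 counts in miR-16-5p (A2G and G6T) and 3 in miR-15a-5p (A2G). No family tag of Exo-AT replicate 1 carried a mismatch.

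Family reads were longer than those of other miRNAs in Exo-ADSCs. Tags under 20 nt held 2 of 65 family counts in Exo-AT replicate 1 (3.08%, Wilson 95% interval 0.848 to 10.5) and 29 of 1032 in Exo-AT replicate 2 (2.81%, 1.96 to 4.01). In Exo-ADSCs replicate 2 they held 0 of 55 family counts (Wilson 95% interval 0 to 6.53). Over other named miRNAs the shares were 19.3%, 15.6% and 55.1%, in the same order. The family interval lay below that of the other miRNAs in each library. The 55 Exo-ADSCs reads fall on 4 tags, and of 46 other forms there with 20 to 100 counts, 12 also had no tag under 20 nt (26.1%), while their median share was 37.9%. Of other forms with 20 to 100 counts, 6 of 29 in Exo-AT replicate 1 and 29 of 61 in Exo-AT replicate 2 had no tag under 20 nt. The median shares were 17.6% and 6%. By value, the family share in Exo-AT replicate 2 lay closer to this 6% than to the 15.6% of all others. No family form of that library had 20 to 100 counts, however, so these forms are not of like depth to the family there. All 29 short family reads in Exo-AT replicate 2 were of miR-16-5p, with 705 counts. The most common length of family reads was 22 nt in all 3 libraries, whereas that of other named miRNAs was 22 nt in Exo-AT and 18 nt in Exo-ADSCs.

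**Figure D5:**
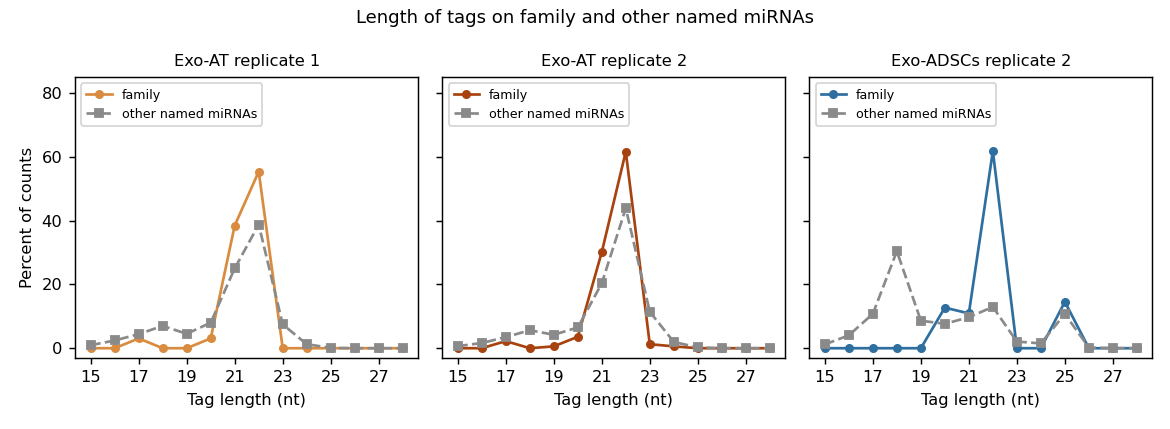
Percent of counts by tag length (nt) for family members (solid, circles) and all other named miRNAs (dashed, squares) in each library. In Exo-ADSCs replicate 2 the other miRNAs peak at 18 nt while the family peaks at 22 nt, with further family reads at 20, 21 and 25 nt. In the Exo-AT libraries both peak at 22 nt.

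When only tags of 20 to 25 nt were counted, the family difference was smaller. miR-16-5p stood at 1.68 (SE 0.55, adjusted p = 0.0417 by edgeR). miR-15a-5p stood at 2.40 (SE 1.01, adjusted p = 0.0900 by edgeR) and miR-497-5p at 2.57 (SE 1.05, adjusted p = 0.0827 by edgeR), and neither was called, beside 23.1% of the 130 miRNAs tested that were called higher. That choice removed 2 and 29 family counts in the Exo-AT libraries and 0 in Exo-ADSCs, but left 43441 of 97204 named counts in Exo-ADSCs. With the authors' predicted hairpins in the fit, none of the 3 forms was called by edgeR. miR-16-5p then stood at 2.61 (adjusted p = 0.536), miR-15a-5p at 3.24 (adjusted p = 0.566) and miR-497-5p at 3.50 (adjusted p = 0.550), and the same fit called 0 of 401 features, with 25 at an unadjusted p under 0.05. Over the 183 named miRNAs alone, 83 had an unadjusted p under 0.05.

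Of the family, the authors' deposited table of 45 miRNAs raised in Exo-AT lists miR-16-5p alone. The authors' deposited table gives it 3837 and 2245 normalized reads in the columns headed for Exo-AT replicates 1 and 2, against 270 and 58 in those for Exo-ADSCs replicates 1 and 2. The authors' deposited table puts its fold at 17.5, the 17th highest of 45, which is not exactly the ratio of the group means of these values. Both Exo-AT values were above both Exo-ADSCs values. The authors' list was chosen for miRNAs raised in Exo-AT, so this order is selected for and is no separate support. The value of 270 is the only one used here for Exo-ADSCs replicate 1. The Exo-AT columns followed the tag files in crossed order. The authors' deposited value of 3837 is 5.44 times the 705 counts of the library titled Exo-AT replicate 2, and the value of 2245 is 62.4 times the 36 counts of the leading tag in the library titled Exo-AT replicate 1. Across miRNAs with a value in both, the authors' deposited column headed for Exo-AT replicate 1 kept a constant ratio to the counts of Exo-AT replicate 2 in 36 of 44, within 5% of the median ratio, and to those of Exo-AT replicate 1 in 3 of 44. The group of each column is not affected.

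On a scale of CPM of all assigned counts, predicted hairpins included, miR-16-5p is at 2500 and 3894 in Exo-AT replicates 1 and 2 and 58.7 in Exo-ADSCs replicate 2. The matching values of the authors' deposited table are 2245, 3837 and 58, of which the first follows the leading tag rather than all tags (28 against 8 of 44 miRNAs within 5% of the median ratio). The fold of miR-16-5p moves with this choice of total. The mean of the Exo-AT libraries over Exo-ADSCs replicate 2 was 5.96 with TMM-scaled CPM, 10.8 with CPM of named counts and 54.4 with CPM of all assigned counts.

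miR-322-5p, the rat form of human miR-424 and a further carrier of the seed, had 4 and 12 counts in Exo-AT replicates 1 and 2, against 0 in Exo-ADSCs replicate 2. It was not called (log2 fold change 6.47, SE 4.67, adjusted p = 0.281 by edgeR). With Exo-ADSCs at 3 counts, its pooled Exo-AT level was 2.14 times that of Exo-ADSCs, without the counting error of Exo-AT. Its opposite arm miR-322-3p had 10 counts in Exo-ADSCs replicate 2 and 0 in both Exo-AT libraries. miR-503-5p, encoded near miR-322 and with the seed AGCAGCG, had 0 and 8 counts in Exo-AT replicates 1 and 2, against 0 for Exo-ADSCs replicate 2. Neither was called without a filter on low counts (adjusted p = 0.243 for miR-322-5p and 0.370 for miR-503-5p by edgeR). With totals of all assigned counts miR-322-5p was called (8.22, SE 3.54, adjusted p = 0.0359 by edgeR).

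By profile over the 3 libraries (distance of log2(CPM + 1) values centred on each miRNA's own mean), the 5 tested miRNAs most like miR-16-5p, of 180 candidates, were miR-26a-5p, miR-30e-5p, miR-30d-5p, miR-30a-5p and miR-127-3p. The distances were 0.18, 0.31, 0.35, 0.41 and 0.48 on the log2 scale, against 0.52 for miR-15a-5p and 1.27 for miR-497-5p. miR-26a-5p was at 6547 and 8779 CPM for Exo-AT and 1365 CPM for Exo-ADSCs. With 3 libraries this is a description of levels, which their choice by likeness to miR-16-5p fixes.

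A list of other miRNAs known to target cyclin or cyclin-dependent kinase transcripts did not move one way. It holds let-7a, b, c, d, e, f and i, miR-26, miR-34, miR-98, miR-449a, miR-322 and miR-503, without let-7g. Of the list's 13 tested forms, 2 were called higher by edgeR, miR-26a-5p (2.50, SE 0.38) and the opposite-arm form let-7d-3p. Called lower were 3, let-7a-5p (-5.67, SE 0.29), let-7f-5p (-0.86, SE 0.31) and the opposite-arm form let-7a-3p (-3.77, SE 1.39). Of all 183, 35 were higher and 36 lower. let-7d-3p, with 0 counts in Exo-ADSCs replicate 2, passed the filter through Exo-AT alone. let-7a-3p, with 0 and 6 counts in Exo-AT, passed through Exo-ADSCs alone. The median log2 fold change of the list was -0.33, beside 0.38 for all 183. let-7f-5p stood at 0.01 with totals of named counts and at 2.33 with totals of all assigned counts, and let-7a-3p was not called under any of the other 3 scalings. With totals of all assigned counts, 9 of the 13 were called higher and 1 lower, beside 109 and 5 of all 183 (59.6% and 2.73%).

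Markers of other cell types were set beside the family because miR-16 is plentiful in blood cells. Of the erythroid list, miR-486-5p was at 36603 and 152437 CPM for Exo-AT and 49624 CPM for Exo-ADSCs, with Exo-AT libraries on both sides of Exo-ADSCs. miR-451-5p was at 158 and 1286 CPM against 853 CPM, and miR-144 had 0, 2 and 4 counts. Of the 2 erythroid forms tested, miR-486-5p was called higher (log2 fold change 0.93, adjusted p = 0.00400 by edgeR) and miR-451-5p was not (-0.01), beside 19.1% called higher of all 183. With DESeq2 size factors miR-486-5p was not called either (adjusted p = 0.598 by edgeR). The summed erythroid level was 36760 and 153736 CPM for Exo-AT and 50539 CPM for Exo-ADSCs, almost all of it miR-486-5p. miR-16-5p was at 2998 and 4772 CPM for Exo-AT and 651 CPM for Exo-ADSCs. The 158 CPM of miR-451-5p in Exo-AT replicate 1 is 2 counts, below the floor of 237 CPM. The part of blood cells in the family's levels was not tested.

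The endothelial miR-126a-3p was at 2367 and 3763 CPM in Exo-AT against 295 CPM in Exo-ADSCs. Of the 2 endothelial forms tested, it alone was called higher. Of the leukocyte list, 1 of 3 tested forms was higher, miR-150-5p (158 and 467 CPM in Exo-AT, 0 counts in Exo-ADSCs), and with DESeq2 size factors none was. miR-150-5p and miR-155-5p passed the filter through Exo-AT alone, so this tally is partly set by the filter. Of all 183, 19.1% were called higher with TMM and 12.6% with DESeq2 size factors. miR-142-5p, at 158 and 237 CPM in Exo-AT against 233 CPM, and miR-155-5p, at 158 and 183 CPM in Exo-AT against 0 counts, were not called. The summed leukocyte level was 473 and 1049 CPM against 233 CPM, with miR-223 at 0 counts in Exo-AT replicate 1 and miR-150, miR-223 and miR-155 at 0 in Exo-ADSCs. Among 8 mesenchymal stromal forms 4 were called lower with TMM and none higher, beside 19.7% lower and 19.1% higher of all 183. Of the 4 most abundant, miR-21-5p (-0.97) and also miR-143-3p (-0.87) were lower, although with totals of all assigned counts they stood at 2.23 and 2.33, while miR-199a-3p (-0.42) and miR-199a-5p (0.88, at 1735 and 1848 CPM in Exo-AT against 977 CPM) were not called. The other lower forms, named after their values were seen, were miR-214-3p and miR-21-3p. miR-21-3p had 0 counts in both Exo-AT libraries and passed the filter through Exo-ADSCs alone. The summed level of the list was 166916 and 145025 CPM in Exo-AT against 286826 CPM. With totals of named counts 1 of the 8 forms was higher and 2 were lower, beside 46 and 19 of all 183 (25.1% and 10.4%). With totals of all assigned counts 4 were higher and 1 was lower, beside 109 and 5 of all 183. The endothelial sum was thus higher in both Exo-AT libraries, as were the 3 family forms. The leukocyte sum was also higher by value. In Exo-AT replicate 1, however, it rests on 2 counts each of miR-142-5p, miR-150-5p and miR-155-5p, each below the floor of 237 CPM. In Exo-ADSCs replicate 2 it rests on 15 counts of miR-142-5p. The part of these cell types in the result was not tested. A larger share of vesicles from a cell type and more of a miRNA per vesicle cannot be told apart in these libraries.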

How the data were processed

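Small RNA of vesicles was sequenced for 36 cycles on an Illumina HiSeq, with inserts of about 15 to 35 nt, per the labels' protocols. Novoalign 2.07.11 and the rn6 build are listed in the submitters' processing notes; for trimming and the miRNA release, the sources used here give nothing. The authors deposited whole-number counts per tag and hairpin, and tag lengths (a unit of its own, other), per the file headers. In the deposited table the authors give normalized reads, treated as a score because no factor is stated, and a fold (treated as a ratio).

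Tag counts were summed per miRNA, copies merged, and arm (midpoint of the tag against that of the hairpin, positions corrected by 5 bases). edgeR 4.0.16 (R 4.3.3; TMM, default filter of minimum count 10 and total 15, quasi-likelihood, two-sided) was fitted over all named miRNAs, with Benjamini-Hochberg adjustment and a threshold of 0.05. The lone Exo-ADSCs library was assumed to vary like Exo-AT, with 1 residual degree of freedom. For edgeR fits, the SE in text and figures was not estimated by the fit. It is the absolute log2 fold change divided by the square root of the test's F statistic. Shares have Wilson 95% intervals, and ratios of counts exact (Clopper-Pearson) ones. The fit was run on simulated counts with known changes, where the number called varied widely between runs and was 0 in some. Alternatives used DESeq2 1.42.0 and limma 3.58.1, other scalings, filters and tag sets.

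The named miRNAs were every family arm with a count, same-seed miRNAs, the 5 nearest profiles to miR-16-5p, and members of the cell cycle and cell type lists (the most abundant, up to 4 per cell type list, and those called in the cell cycle list). miR-503-5p is given as the neighbour of miR-322. Members and lists were chosen with earlier results of these data known.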

Additional observations from a re-analysis of the deposited data

How the results depend on the processing

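The log2 fold changes of miR-16-5p, miR-15a-5p and miR-497-5p were above 0 under every alternative run. With tags of 20 to 25 nt only, miR-15a-5p (2.40) and miR-497-5p (2.57) were not called and 1 family form was called higher. With predicted hairpins included, miR-16-5p (2.61), miR-15a-5p (3.24) and miR-497-5p (3.50) were not called and 0 family forms and 0 of all features were called higher or lower. By DESeq2 miR-15a-5p (2.96) was not called. The cause of these changes was not tested. Without 1 Exo-AT library, a value with no test, miR-16-5p was between 2.23 and 2.87, miR-15a-5p between 2.86 and 3.50 and miR-497-5p between 3.05 and 3.84. Of all miRNAs, 23 were called higher with DESeq2 size factors, 22 by DESeq2 and 109 with totals of all assigned counts. Those called lower were 19 with totals of named counts, 21 by DESeq2 and 5 with totals of all assigned counts. With tags of 20 to 25 nt only, the family share was 0.873% in Exo-AT replicate 2 and 0.127% in Exo-ADSCs replicate 2. No paired analysis was possible because the labels give no pairing between Exo-AT and Exo-ADSCs replicates. Depth limits miR-15b and miR-195, which could not have been told from 0 in Exo-AT replicate 1.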
